A study of Mus musculus with 30 samples.

Results

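Cell cycle and DNA replication genes were followed as a set of 39 members, listed by name in turn as 18 S phase genes and 21 mitotic genes, out of 43346 mouse genes counted. All 39 were found in the table by symbol and were read in all 30 libraries. The S phase genes were Mcm2 to Mcm7, Pcna, Rrm1, Rrm2, Tyms, Gins2, Cdc6, Cdt1, Cdc45, E2f1, Ccne1, Ccne2 and Chek1. The mitotic genes were Mki67, Top2a, Cdk1, Ccnb1, Ccnb2, Ccna2, Aurka, Aurkb, Bub1, Bub1b, Plk1, Cdc20, Cenpe, Cenpf, Kif11, Kif20a, Kif23, Nusap1, Tpx2, Birc5 and Ube2c.

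Cells of mouse bone, lung and brain that carried no GFP were sorted as stroma, and their RNA was sequenced. In 23 libraries the tissue held tumours of a patient-derived breast circulating tumour cell (CTC) line, here called exposed: bone with Brx07 (2 libraries), Brx50 (4) or Brx68 (7), lung with Brx07 (2), Brx42 (1), Brx50 (3) or Brx68 (1), and brain with Brx50 (3). The other 7 came from tumour-free mice: 3 of bone, 2 of lung and 2 of brain. The exposed mice were female NSG animals of 6 to 8 weeks, a strain that lacks lymphocytes, with estrogen pellets, and each got 100000 GFP and luciferase labelled CTCs in the left ventricle of the heart. The sources used here do not give the age of the control mice or say whether they carried pellets. A library was made from 50000 sorted cells, and a GFP-negative sort keeps every host cell type, so marrow blood cells are part of bone stroma here. Libraries are named by tissue, line and a number, used here only as a name. The titles place bone Brx07 1 in the leg and bone Brx07 2 in the skull, with the same code on both, and give no site for the other bone libraries. The labels do not say whether each library of a group had its own mouse, so p-values measure the spread between these libraries, which may be technical.

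A cell that is about to divide first copies its DNA in S phase and then separates the copies in mitosis. The MCM proteins form the helicase that opens DNA, Cdc6 and Cdt1 load it, Cdc45 and Gins2 switch it on, Pcna clamps the polymerase, and Rrm1, Rrm2 and Tyms supply nucleotides. E2f1 drives transcription of many of these genes, Ccne1 and Ccne2 encode the E cyclins that start S phase, and Chek1 is a replication checkpoint kinase. In mitosis Cdk1 acts with the A and B cyclins, the Aurora and Plk1 kinases build the spindle, Bub1 and Bub1b guard it, kinesins such as Kif11 move it, and Cdc20 and Ube2c serve the anaphase-promoting complex. Mki67 coats mitotic chromosomes and is the usual label of dividing cells. Among normal adult tissues, marrow divides much more than lung or brain, because neutrophil and red cell precursors are replaced all the time. Many S phase promoters carry E2F sites, whereas many mitotic promoters carry a cell cycle homology region (CHR) with CCAAT boxes near it, bound by the DREAM and B-MYB complexes and by NF-Y.

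The promoters of the members were searched for these motifs. RefSeq sequence of GRCm38.p6, 250 bases before to 50 after each start, matched 32 of the 39 members, 15 of S phase and 17 mitotic. Motifs were searched on both strands by exact letters, with no test. A member with several windows, as Mcm7 had, counted once if any of them held the motif. The share of all promoters counts each window, so its unit differs. An E2F-type core, TTCCCGC or TTCGCGC or TTGGCGC, was found for 8 of 15 S phase members and 3 of 17 mitotic ones. The share was 8.07% of 32851 promoters of that length. A CHR, TTTGAA or TTCGAA, was in 3 of 15 and 13 of 17, against 19.2%. The 5 letters CCAAT were in 9 of 15 and 15 of 17, against 37.4%. CHR and CCAAT stood together in 3 of 15 S phase promoters and 13 of 17 mitotic ones, against 7.53%. A match is a description of letters and shows no binding.

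Promoters of 3 mitotic and 3 S phase genes are shown as examples whose motifs differ. Capitals mark every motif match in either orientation, and a match on the other strand is shown as its reverse complement. Neighbouring matches can overlap and then run together.
The windows are chr7:135716330-135716629 (Mki67), chr10:69352863-69353162 (Cdk1), chr11:99024140-99024439 (Top2a), chr1:20820263-20820562 (Mcm3) and chr1:128359656-128359955 (Mcm6), all on the minus strand, and chr12:24708004-24708303 (Rrm2) on the plus strand, each printed 5′ to 3′ on the strand of its gene.
Mki67: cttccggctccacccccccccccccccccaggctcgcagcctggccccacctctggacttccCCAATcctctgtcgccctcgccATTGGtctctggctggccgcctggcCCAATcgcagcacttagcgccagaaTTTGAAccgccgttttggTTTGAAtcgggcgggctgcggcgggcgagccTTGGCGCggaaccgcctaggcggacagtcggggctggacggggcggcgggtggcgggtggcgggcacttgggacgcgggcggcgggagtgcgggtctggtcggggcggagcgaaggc
Cdk1: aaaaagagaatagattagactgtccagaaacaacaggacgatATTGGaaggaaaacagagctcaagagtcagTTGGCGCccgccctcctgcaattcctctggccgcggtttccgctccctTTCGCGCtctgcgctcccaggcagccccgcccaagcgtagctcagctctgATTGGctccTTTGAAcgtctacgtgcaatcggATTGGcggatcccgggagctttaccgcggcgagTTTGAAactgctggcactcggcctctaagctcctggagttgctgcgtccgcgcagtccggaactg
Top2a: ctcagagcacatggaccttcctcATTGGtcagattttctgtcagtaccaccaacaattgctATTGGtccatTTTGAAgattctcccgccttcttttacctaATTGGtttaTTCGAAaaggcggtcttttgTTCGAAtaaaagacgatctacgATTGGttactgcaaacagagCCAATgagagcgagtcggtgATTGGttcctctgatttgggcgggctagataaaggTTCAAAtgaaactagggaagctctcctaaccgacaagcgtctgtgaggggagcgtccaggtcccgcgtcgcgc
Mcm3: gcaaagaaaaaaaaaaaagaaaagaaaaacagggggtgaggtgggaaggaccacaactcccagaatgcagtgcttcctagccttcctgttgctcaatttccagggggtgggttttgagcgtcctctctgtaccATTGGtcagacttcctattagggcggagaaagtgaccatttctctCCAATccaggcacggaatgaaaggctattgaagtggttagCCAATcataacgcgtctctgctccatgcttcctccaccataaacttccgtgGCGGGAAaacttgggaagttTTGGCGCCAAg
Mcm6: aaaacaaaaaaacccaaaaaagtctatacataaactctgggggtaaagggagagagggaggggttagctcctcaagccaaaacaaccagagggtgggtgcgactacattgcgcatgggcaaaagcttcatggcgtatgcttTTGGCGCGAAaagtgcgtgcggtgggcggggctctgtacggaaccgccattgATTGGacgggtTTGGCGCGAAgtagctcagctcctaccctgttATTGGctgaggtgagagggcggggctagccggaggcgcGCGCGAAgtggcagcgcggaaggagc
Rrm2: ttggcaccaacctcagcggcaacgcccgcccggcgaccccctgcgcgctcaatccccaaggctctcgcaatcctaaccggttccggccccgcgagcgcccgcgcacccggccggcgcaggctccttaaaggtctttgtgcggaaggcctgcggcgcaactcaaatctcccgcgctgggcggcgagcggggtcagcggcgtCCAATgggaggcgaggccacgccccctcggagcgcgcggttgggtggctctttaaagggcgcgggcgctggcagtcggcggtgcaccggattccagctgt
Mki67, Cdk1 and Top2a each held CHR and CCAAT matches, and Top2a held no E2F-type core. Mcm3 and Mcm6 held several E2F-type cores and no CHR. Rrm2 held neither an E2F-type core nor a CHR of these letters within this window.

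Whole-library measures were as follows. Total counts ran from 4289012 to 15646947, and levels are given as CPM, counts scaled to a common library total. Genes detected ran from 14769 to 25688, and 3 exposed libraries had under 17000, namely bone Brx68 1, bone Brx68 6 and brain Brx50 1. In the controls, defining markers matched the labelled tissues. Elane stood at 784 to 1174 CPM in bone, Sftpc at 1044 to 1606 CPM in lung and Aqp4 at 239 to 257 CPM in brain. The osteoblast gene Bglap reached only 5.70 CPM in bone controls. In exposed bone the neutrophil precursor markers, Elane among them, varied widely and are given below. Exons of 11 members overlap another annotated gene, 10 of them on the other strand (Mcm7 with Ap4m1 and Cops6, Ube2c with Tnnc2), and Ccnb1, Ccnb2, Pcna and Tyms have named pseudogenes. No source used here states whether counting used strand, so the levels of these members are less certain. All 39 members passed the filter on low counts in each comparison. In bulk RNA, fewer cells of a type and less RNA per cell cannot be told apart.

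Tumour-free stroma was compared between tissues first, to give the level of the members without tumours. All 39 members were higher in bone than in lung, and all 39 were higher in bone than in brain, by edgeR's quasi-likelihood test with Benjamini-Hochberg adjustment at 0.05. Over all 18859 genes tested, 22.5% were called higher in bone than in lung and 37.0% higher in bone than in brain. The median log2 difference from lung was 2.48 over the S phase genes and 4.25 over the mitotic genes, and that from brain 3.36 and 5.48. The medians of all genes tested were 0.00 and -0.04, and in both comparisons the median was larger for the mitotic than for the S phase genes.

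Mki67 was the highest of the members per exon length in bone controls, at 107 ± 6.96 CPM per kb (SD, n = 3), ahead of Mcm3 at 39.4 ± 2.01 and Rrm2 at 37.7 ± 3.87, and Gins2 was the lowest at 1.95. In lung controls Pcna led instead, at 19.7 ± 0.92 CPM per kb (SD, n = 2), and in brain controls Mcm4 led at 3.67 ± 0.42, with Mcm7 at 3.52 ± 0.12 within that spread. The leading gene thus differed between the 3 tissues, with S phase genes ahead in lung and brain.

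Among mitotic members, Mki67 stood at 1148, 1009 and 1087 CPM in the bone controls, at 54.7 and 44.1 in the lung controls and at 7.34 and 5.46 in the brain controls. Its log2 difference was 4.42 ± 0.18 (SE) from lung and 7.55 ± 0.22 from brain (edgeR adjusted p = 2.59e-09 and 2.36e-11). The 3 tissues did not overlap. Top2a, which encodes the topoisomerase that untangles copied chromosomes, stood at 311, 322 and 316 CPM in bone, 14.2 and 10.2 in lung and 2.71 and 2.53 in brain. Cdk1, the kinase of mitotic entry, stood at 52.3, 46.8 and 47.6 CPM, then 2.51 and 1.67, then 0.797 and 0.666, so bone was above lung by 4.50 ± 0.20 on the log2 scale. Lung and brain were closer for some members. Ccnb1, the partner of Cdk1, stood at 21.6, 19.1 and 21.8 CPM in bone, at 0.896 and 0.372 in lung and at 0.957 and 0.267 in brain, where the last 2 groups overlap. Plk1, a spindle kinase, stood at 27.9, 32.3 and 27.2 CPM in bone, 1.88 and 1.40 in lung and 1.28 and 1.60 in brain, and again lung and brain overlap. The largest mitotic difference of bone from lung was that of Kif11, a spindle motor, at 5.47 ± 0.26, followed by Ccnb1 at 4.97 ± 0.34, Aurkb, a kinase of chromosome attachment, at 4.83 ± 0.22 and Top2a at 4.66 ± 0.17. From brain, Ube2c led at 7.70 ± 0.37, followed by Mki67, then Bub1b at 7.11 ± 0.45 and Top2a at 7.05 ± 0.21. Brain levels behind these folds were low, with 2 counts of Ube2c in each brain control and 3 and 4 of Bub1b, so these 2 folds depend on the offset that edgeR adds to counts.

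Among S phase members, Rrm2, the regulated subunit of ribonucleotide reductase, stood furthest apart. It was at 116, 102 and 95.2 CPM in bone controls, 5.20 and 4.37 in lung controls and 0.478 and 0.933 in brain controls (log2 difference 4.42 ± 0.18 from lung and 7.29 ± 0.25 from brain). With only 3 and 7 counts in the brain controls, Rrm2 too had a fold from brain that depends on the offset. Its partner Rrm1 differed by only 1.97 ± 0.11 and 3.04 ± 0.13. Cdc6, a helicase loader, stood at 40.7, 31.6 and 36.3 CPM in bone, 3.85 and 2.23 in lung and 0.159 and 0.666 in brain, the last being 1 and 5 counts. Mcm2, a helicase subunit, stood at 131, 123 and 131 CPM, then 17.9 and 15.2, then 3.99 and 4.80, which puts bone above lung by 2.93 ± 0.13 on the log2 scale. Pcna showed the smallest difference between bone and lung. Pcna stood at 73.5, 67.7 and 73.2 CPM in bone and at 45.7 and 48.8 in lung, a log2 difference of 0.57 ± 0.11 (edgeR adjusted p = 9.57e-04), but at 7.49 and 7.46 in brain. Ccne1, an E cyclin, stood at 21.2, 12.1 and 14.2 CPM in bone, 1.61 and 1.86 in lung and 5.42 and 4.13 in brain, so brain was above lung. Other S phase members far from lung were Cdc45, which activates the helicase, at 3.66 ± 0.28, Cdc6 at 3.53 ± 0.26 and Mcm5 at 3.49 ± 0.14. From brain, Cdc6 at 6.48 ± 0.38, Cdc45 at 5.71 ± 0.38 and Cdt1 at 5.28 ± 0.22 followed Rrm2. Cdc45 had 3 counts in each brain control and Cdc6 had 1 and 5, so their folds from brain depend on the offset as well.

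**Figure D1:**
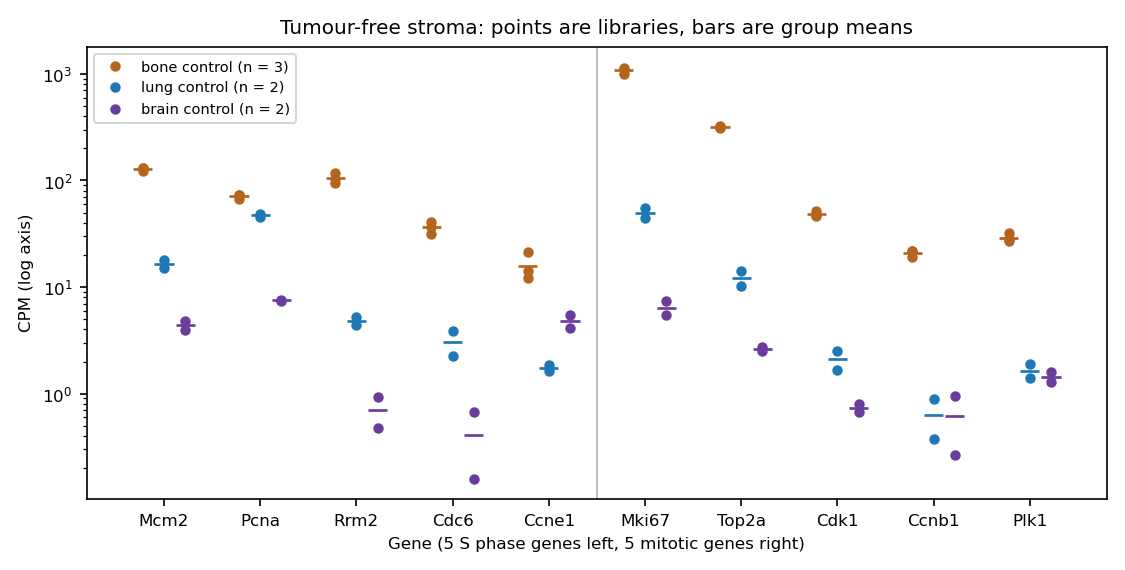
CPM (log axis) of 5 S phase and 5 mitotic genes in tumour-free stroma, with 1 point per library and a bar at each group mean (bone n = 3, lung n = 2, brain n = 2). Bone is the highest tissue for all 10 genes, the gap to lung is narrow for Pcna, and Ccne1 is higher in brain than in lung.

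Lung and brain controls differed less uniformly. Of the 39 members, 28 were higher in lung and 3 were lower in lung, and 8 were not called by edgeR, against 34.6% of all genes higher and 37.4% lower. The medians were 1.51 for S phase and 1.69 for mitotic genes. Kif23, a motor of cell separation, differed most among mitotic genes at 4.62 ± 0.25, with 18.6 and 20.1 CPM in lung and 1.12 and 0.666 in brain. Bub1b followed at 3.23 ± 0.62, Mki67 at 3.13 ± 0.20 and Ube2c at 3.06 ± 0.58. Among S phase genes Cdt1 (3.01 ± 0.25), Cdc6 (2.95 ± 0.52), Mcm3 (2.92 ± 0.17) and Rrm2 (2.87 ± 0.35) led. The 3 genes lower in lung were Ccne1 (-1.27 ± 0.37), Ccne2 (-0.99 ± 0.27) and Nusap1, a spindle protein (-1.53 ± 0.36), so both E cyclins were among them. These were named after their values were seen, and without brain control replicate 1 the call of Ccne1 was lost (-1.08, edgeR adjusted p = 0.0607). The 8 members not called were Tyms, Chek1, Ccna2, Ccnb1, Cenpf, Kif11, Kif20a and Plk1. Oligodendrocyte markers summed to 9195 and 16560.0 CPM in the brain controls and to 125 and 136 in the lung controls, and their part in the difference was not tested.

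Pathway genes outside the members moved with them in part. Of 40 other mitotic genes, 40 were higher in bone than in lung controls and 39 higher than in brain, and of 40 other replication genes 36 and 34 were. Among 19 E2F, pocket protein and DREAM regulators, 13 were higher in bone than in lung and 1 was lower. Mybl2, which encodes B-MYB, stood at 37.0 ± 5.73 CPM in bone (SD, n = 3) against 2.06 ± 0.64 in lung (n = 2), and Foxm1, a driver of mitotic genes, at 58.9 ± 3.37 against 8.23 ± 2.04. Among 15 G1 cyclins, kinases and inhibitors, 8 were higher in bone and 6 were lower, against 22.5% and 22.3% of all genes. The 6 lower genes were the inhibitors Cdkn2a, Cdkn2b, Cdkn1a and Cdkn1b and the D cyclins Ccnd1 and Ccnd2. Cdkn2b stood at 2.06 ± 0.72 CPM in bone and 22.2 ± 0.01 in lung, a log2 difference of -3.45. In neutrophil precursor markers (Mpo, Elane, Prtn3, Ctsg and Ms4a3) the bone controls summed to 2152 to 3120.0 CPM, the lung controls to 4.37 and 8.15 and the brain controls to 0.53 and 1.59. These sums move with the members across tissues, and their part in the difference was not tested.

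In bone next to tumours the members were either all above or all below the tumour-free level in 12 of the 13 libraries. In bone Brx07 1, bone Brx68 4 and bone Brx68 5, 39 of 39 members were above the highest of the 3 controls, where 35.5%, 30.6% and 33.8% of the 18278 genes tested were. In bone Brx50 2, 32 members were above and 4 below, against 37.0% and 38.1% of genes. In each of the other 9 libraries, 39 of 39 members were below the lowest control, where the share of all genes was 30.6% in bone Brx07 2, 43.5%, 36.7% and 37.5% in bone Brx50 1, 3 and 4, and 48.8%, 52.7%, 44.7%, 51.8% and 32.9% in bone Brx68 1, 2, 3, 6 and 7. Members of one library share its cells and are no independent replicates. Bone Brx68 5 was the highest of the exposed bone libraries for 26 of the 39 members.

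**Figure D2:**
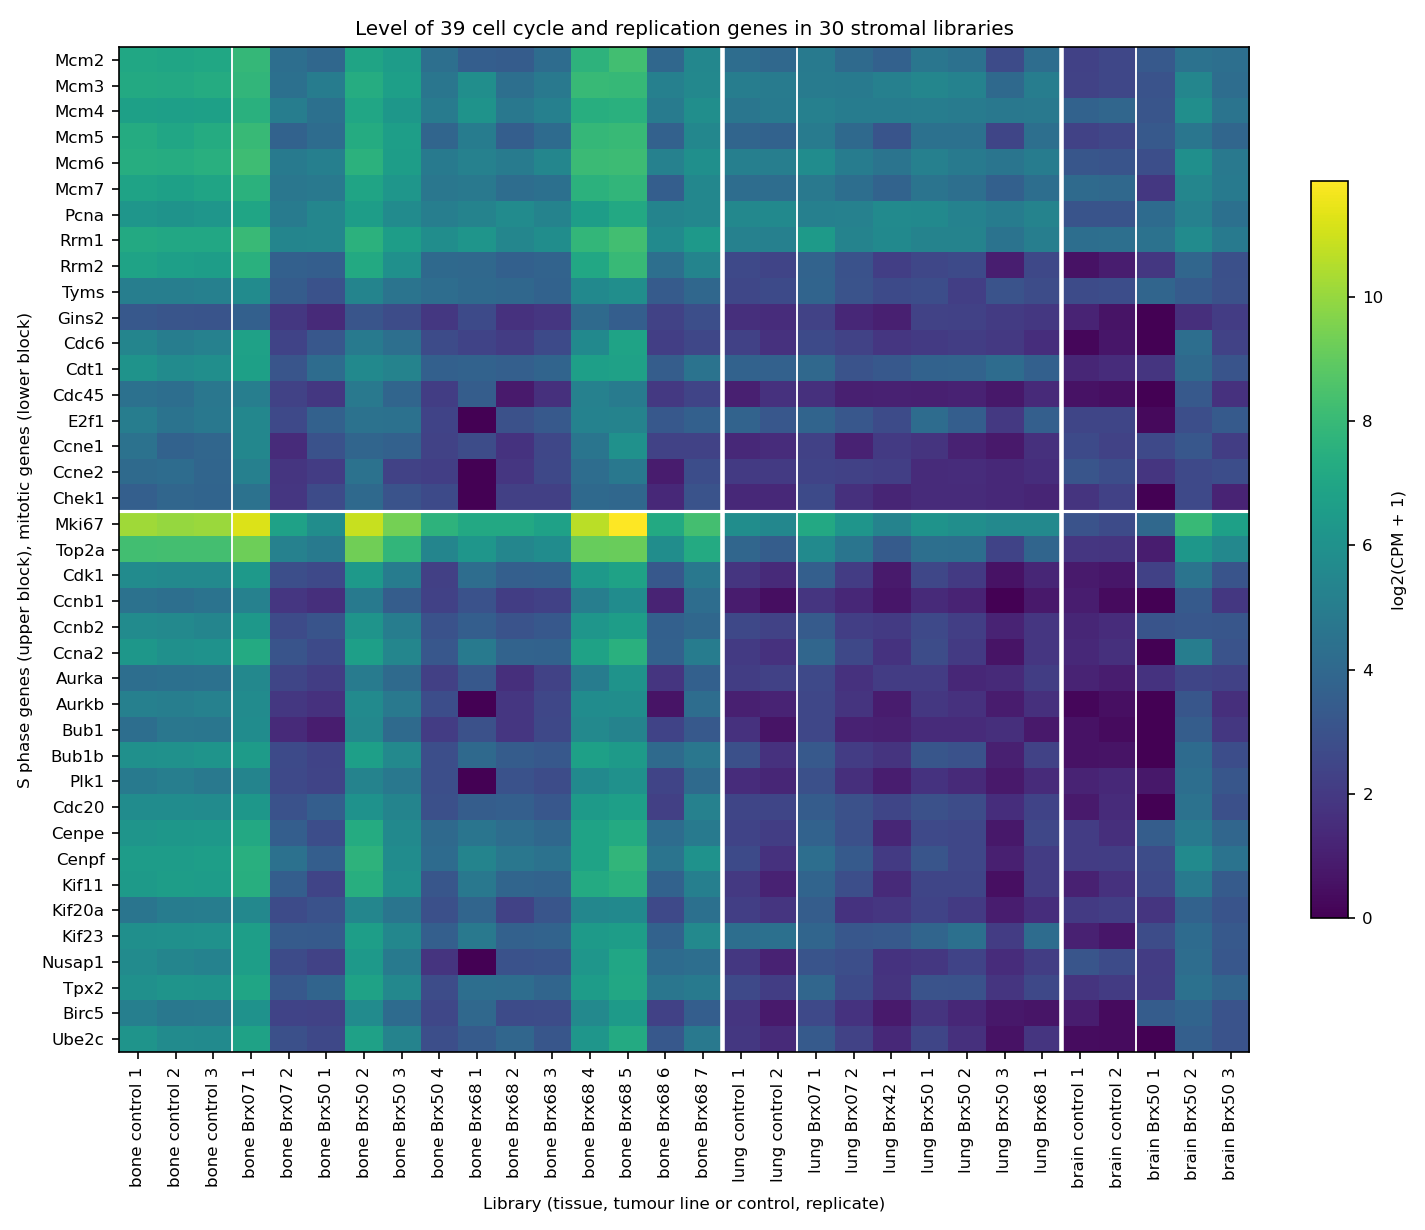
Heat map of log2(CPM + 1) for the 39 genes (18 S phase above, 21 mitotic below the white line) in the 30 libraries, ordered by tissue with controls first. The bone controls are evenly high, the exposed bone libraries are either higher or lower than them across nearly the whole column, and brain Brx50 2 and 3 are brighter than the brain controls.

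Mki67 shows this split. It stood at 2449.6 CPM in bone Brx07 1 (leg) and 111 in bone Brx07 2 (skull). With Brx50 it was at 54.9, 1872, 675 and 201 CPM in replicates 1 to 4. With Brx68 it was at 141, 141, 109, 1589, 3738, 147 and 321 CPM in replicates 1 to 7. The controls, at 1009 to 1148 CPM, lay inside this range of 54.9 to 3738 (median 201), with 4 libraries above them and 9 below. Each line with bone libraries had at least 1 library on either side. Top2a ran from 27.8 to 630.1 CPM with a median of 74.9, Cdk1 from 3.77 to 112 with a median of 17.97 and Ccnb1 from 1.27 to 53.2 with a median of 6.90. Plk1 ran from 0 to 62.2 CPM with a median of 7.04. All 5 mitotic genes overlapped the controls, and in each the median lay below them.

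The S phase genes followed the same libraries. Mcm2 ran from 9.86 to 306 CPM with a median of 19.1, against 123 to 131 in controls. Rrm2 ran from 10.5 to 258 with a median of 19.0, against 95.2 to 116, and Cdc6 from 3.26 to 116 with a median of 5.48, against 31.6 to 40.7. Pcna spread less, from 29.3 to 144 with a median of 44.4, against 67.7 to 73.5. Ccne1 ran from 1.76 to 62.8 with a median of 5.86, against 12.1 to 21.2. The 4 members below the controls in bone Brx50 2 were the S phase genes Mcm2 at 119 CPM, Cdc6 at 28.8, Cdt1 at 48.1 and E2f1 at 21.4, and all 21 mitotic genes were above the controls there. Bone Brx68 1, which had the fewest genes detected, was at 0 for E2f1, Ccne2, Chek1, Aurkb, Plk1 and Nusap1, where a count of 0 allows up to 3 counts.

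The fit of all 13 exposed libraries against the 3 controls called 0 of 39 members. Over all genes 0% were called, 0 members had an unadjusted p under 0.05, where 2.51% of genes did, and DESeq2 also called 0. All 39 members were fitted lower, with medians of -0.59 for S phase and -0.42 for mitotic genes against 0.08 over all genes. Leaving out 1 library moved these medians between -0.80 and -0.45 and between -0.65 and -0.27. Among the named genes, Bub1b was at -0.71 ± 0.86, Mcm6 at -0.65 ± 0.75, Mcm3 at -0.64 ± 0.76, Mcm2 at -0.60 ± 0.95, Rrm2 at -0.58 ± 0.92, Plk1 at -0.53 ± 0.98 and Kif23 at -0.52 ± 0.73 (log2, SE). Top2a (-0.45 ± 0.91), Ccnb1 (-0.44 ± 0.90), Cdk1 (-0.42 ± 0.87), Cdc6 (-0.38 ± 1.05), Mki67 (-0.30 ± 1.08), Pcna (-0.17 ± 0.46) and Ccne1 (-0.13 ± 0.90) were closer to 0. Each SE exceeded its difference, and the smallest edgeR adjusted p among these genes was 0.970. Limma-voom with quality weights, which works on log values and down-weights libraries, called 27 members lower, with medians of -1.31 and -1.39. The share of all genes that limma-voom called is not given here, so this count cannot be read as particular to the members. The mean of Mki67 over the 13 exposed libraries was 888 ± 1170.2 CPM (SD), far above their median of 201, against 1081 ± 70.0 in the 3 controls.

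Marrow markers moved with part of this split. The 5 neutrophil precursor genes summed to 2152 to 3120.0 CPM in the controls. They summed to 2625 CPM in bone Brx07 1, 2464 in bone Brx50 2, 1648 in bone Brx50 3, 4301 in bone Brx68 4 and 678 in bone Brx68 5, and to between 0.53 and 54.5 in the other 8 libraries, where Mpo was at 0 in 2. The 8 erythroid genes summed to 336 to 762 CPM in controls, 4351 in bone Brx07 1 and 8405 in bone Brx68 5, and 21.9 to 363 in the other 11. The 6 fibroblast genes summed to 11054 to 20875 CPM in controls and 4589.6 to 68157 in exposed libraries, with the lowest sum in bone Brx07 1 and the highest in bone Brx50 1, the library with the lowest mitotic score. The 5 epithelial genes summed to 66.8 to 89.7 CPM in controls and to 6.05 (bone Brx68 5) to 909 (bone Brx07 2) in exposed libraries. Bone Brx68 7 went another way, with a precursor sum of 8.84 CPM but Mki67 at 321 CPM. The part of these cells in the level of the members was not tested.

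**Figure D3:**
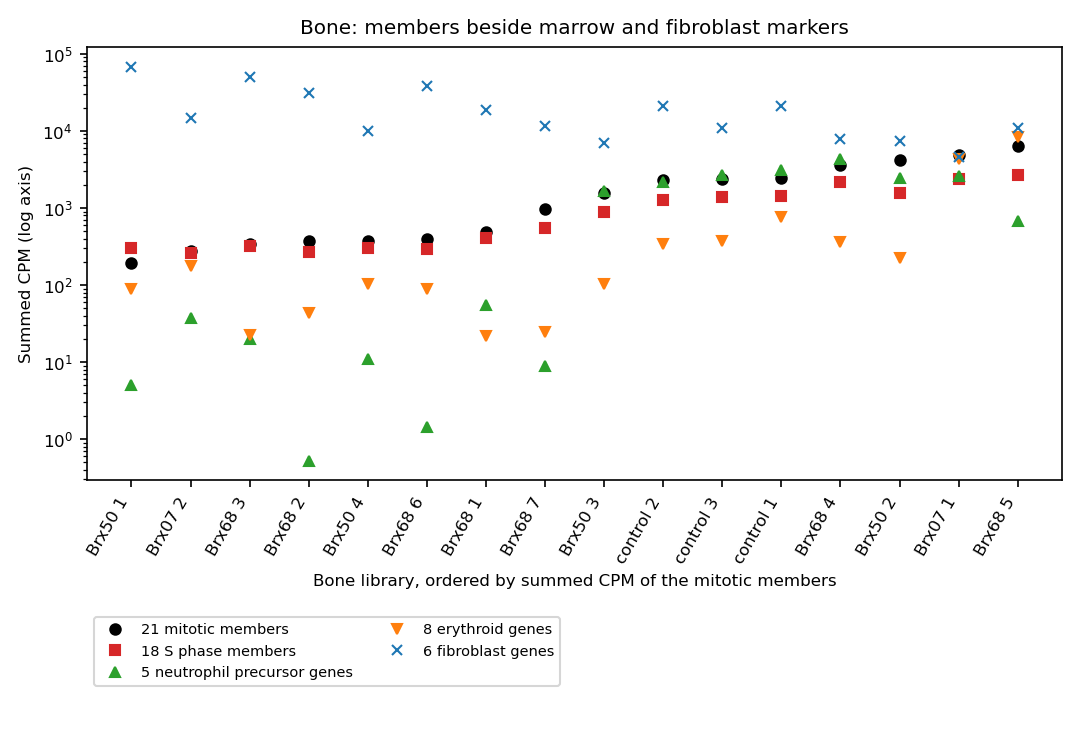
Summed CPM (log axis) of the 21 mitotic genes, the 18 S phase genes and the neutrophil precursor, erythroid and fibroblast marker lists in each bone library, ordered by the mitotic sum. The 4 libraries with mitotic sums above the controls hold precursor or erythroid RNA within or above the control range, bone Brx68 7 has a mitotic sum of 958 with a precursor sum of 8.84, and the fibroblast sum is highest in bone Brx50 1.

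The lines Brx68 and Brx50 were compared in exposed bone (7 against 4 libraries). By edgeR 0 of 39 members were called, 0 had an unadjusted p under 0.05, and over all genes 0% and 3.95% did. DESeq2 and limma-voom called 0 too. The class medians were 0.35 and 0.18 by edgeR but -0.65 and -0.61 by limma-voom, so the direction turned with the method. The S phase genes with the smallest p were Gins2 (0.65 ± 0.63) and Ccne1 (0.83 ± 0.90), and the mitotic ones Ccnb1 (0.64 ± 0.98) and Ccna2 (0.57 ± 0.97). Mki67 was at 0.41 ± 1.17, Mcm2 at 0.58 ± 1.05 and Cdc6 at 0.86 ± 1.09. Cdk1 (0.38 ± 0.94), Rrm2 (0.32 ± 1.00), Pcna (0.30 ± 0.46), Plk1 (0.21 ± 1.12) and Top2a (-0.05 ± 0.96) were closer to 0. Every SE but that of Gins2 exceeded its difference, and all edgeR adjusted p were at least 0.983. Without bone Brx68 5 the value of Mki67 turned to -0.73, and leaving out 1 library moved the medians between -0.18 and 1.01 and between -0.38 and 1.28.

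Brain next to Brx50 tumours was fitted higher for most members, and its 3 libraries differed widely. Of the 39 members, 37 were fitted higher than in the 2 controls, 0 passed edgeR's adjusted threshold (background 0.00598%, 1 gene of 16734), and 16 had an unadjusted p under 0.05, against 13.6% of all genes. DESeq2 called 12 members and limma-voom 14, all higher. The shares of all genes that these 2 methods called are not given here, so their counts cannot be read as particular to the members. The median log2 change was 1.36 over S phase genes and 2.87 over mitotic genes, against 0.03 over all genes. In 18 members every exposed library was above both controls, which held for 19.9% of all genes tested. These were Mcm2, Mcm3, Mcm5, Pcna, Rrm1, Rrm2, Tyms and Cdt1 of S phase, and Mki67, Cdk1, Ccnb2, Aurka, Cenpe, Cenpf, Kif11, Kif23, Tpx2 and Birc5 of mitosis.

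Birc5, which encodes survivin, a part of the Aurora B complex, stood at 10.03, 13.0 and 7.13 CPM in exposed brain replicates 1 to 3, against 0.957 and 0.267 in the controls. Its log2 change was 3.96 ± 0.81, and its edgeR adjusted p of 0.242 was the smallest of the members, shared with Kif23. Kif23 stood at 5.83, 16.6 and 8.87 CPM against 1.12 and 0.666 (3.47 ± 0.75). Counts in the 2 controls were few, at 6 and 2 for Birc5, 7 and 5 for Kif23 and 5 and 5 for Cdk1, so their folds are uncertain. Birc5 was the most even of these genes across the 3 exposed libraries. Mki67 stood at 15.2, 252 and 106 CPM against 7.34 and 5.46, a log2 change of 4.20 ± 1.11 (edgeR adjusted p = 0.271). Cdk1 stood at 3.96, 22.8 and 7.60 CPM against 0.797 and 0.666 (3.87 ± 0.95, adjusted p = 0.248 by edgeR). Both genes were above the controls in all 3 libraries and highest in replicate 2. Top2a stood at 0.933, 76.5 and 45.6 CPM against 2.71 and 2.53, so replicate 1 was below the controls (3.89 ± 1.44). Ccnb1 at 0, 9.19 and 2.85 CPM against 0.957 and 0.267 (2.62 ± 1.81) and Plk1 at 0.699, 18.3 and 7.92 against 1.28 and 1.60 (2.55 ± 1.22) behaved in the same way.

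Of the S phase genes, Pcna had the smallest p. It stood at 16.8, 36.2 and 19.8 CPM against 7.49 and 7.46, a log2 change of 1.63 ± 0.42 (edgeR adjusted p = 0.259). Mcm2 stood at 9.09, 20.96 and 19.2 CPM against 3.99 and 4.80 (1.84 ± 0.50). Rrm2 stood at 2.80, 14.1 and 6.49 CPM against 0.478 and 0.933 (3.36 ± 0.98), with only 3 and 7 counts in the controls. For these 3 genes the exposed and control libraries did not overlap. Cdc6 stood at 0, 18.3 and 4.12 CPM against 0.159 and 0.666, and its change of 4.01 ± 1.93 rests on 2 libraries. Ccne1, at 5.13, 8.47 and 3.48 CPM against 5.42 and 4.13, overlapped the controls (0.19 ± 0.65). The other E cyclin Ccne2 (-0.64 ± 0.62) and the checkpoint kinase Chek1 (-0.60 ± 1.46) were the 2 members fitted lower.

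Replicates 1 to 3 of exposed brain had 18, 38 and 36 of the 39 members above the highest control, where 41.1%, 50.6% and 44.2% of genes were. In replicate 1, 20 members were below the lowest control, where 47.8% of genes were, so most of its members were not higher. It had the fewest counts of all libraries (4289012), 16344 genes detected and 11 members at 0. Without it, edgeR called 2 members higher, Mki67 (4.72) and Top2a (4.46), with class medians of 1.67 and 3.34, and adjusted p of 0.0466 and 0.0348. The share of all genes called in that fit is not given here. Replicate 2 was the highest of the 3 for 35 members, and without it the class medians were 0.78 and 2.05. It also held the most neutrophil RNA, with 7 neutrophil genes summing to 3554 CPM against 25.2 and 118 in replicates 1 and 3 and 16.6 and 17.46 in the controls, and precursor genes to 286 CPM. The 5 microglia genes summed to 1769, 2277 and 624.7 CPM against 469 and 613, and the 6 fibroblast genes to 183, 1373 and 1806 against 125 and 135. The 6 monocyte and macrophage genes summed to 1785, 2883 and 1075 CPM against 332 and 538, and the 5 epithelial genes to 16.6, 83.1 and 47.7 against 5.26 and 10.7. Microglia, macrophage, fibroblast, epithelial and neutrophil sums were thus above both controls in all 3 exposed libraries, though microglia only narrowly in replicate 3. The same held for oligodendrocyte genes, which summed to 32218, 26285 and 19109 CPM against 9195 and 16560.0, and for the low osteoblast sum. Neuron genes were below both controls in all 3, at 1701, 436 and 1279.7 CPM against 2728 and 2087. Epcam, an epithelial surface gene, stood at 6.65 to 10.01 CPM against 0.27 and 0.48, a log2 change of 4.28 (edgeR adjusted p = 0.228). The part of these cells in the result was not tested. Nor was that of human tumour reads, whose separation from mouse reads the sources used here do not describe.

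In lung next to tumours of 4 lines no difference of the members from the controls passed a test. Of the 39 members, 32 were fitted higher, 0 were called by edgeR, DESeq2 or limma-voom, and 0 had an unadjusted p under 0.05, against 0% and 0.689% of the 17132 genes tested. Medians were 0.16 for S phase and 0.51 for mitotic genes, against 0.08 over all genes. They rest on single libraries, being 0.02 and 0.13 without lung Brx07 1 and 0.25 and 1.02 without lung control 1. Mki67 ran from 38.4 to 141 CPM over the 7 exposed libraries with a median of 56.6, against 54.7 and 44.1, a log2 change of 0.50 ± 0.48. Top2a ran from 4.23 to 51.1 CPM with a median of 18.4, against 14.2 and 10.2 (0.75 ± 0.75). Pcna ran from 30.8 to 49.6 CPM with a median of 37.1, against 45.7 and 48.8 (-0.21 ± 0.19). In all 3 genes the exposed libraries overlapped the controls. Cdk1 (0.81 ± 1.05), Ccnb1 (0.93 ± 1.10), Plk1 (0.51 ± 0.77), Mcm2 (0.14 ± 0.47), Rrm2 (0.27 ± 0.69), Cdc6 (0.19 ± 0.42) and Ccne1 (0.32 ± 0.60) were each closer to 0 than their SE. The smallest p belonged to Nusap1 (1.05 ± 0.61) and Aurkb (0.99 ± 0.67) among mitotic and to Mcm4 (0.24 ± 0.19) and Gins2 (0.65 ± 0.56) among S phase genes.

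Single lung libraries departed in both directions. In lung Brx07 1, 35 of 39 members were above the highest control (36.6% of genes), and it was the highest exposed lung library for 34. Its fibroblast genes summed to 42064 CPM, against 1742 and 2068 in the controls, and its lung epithelium genes to 120 CPM, against 1799 and 2269. In lung Brx50 3, 31 members were below the lowest control (54.6% of genes), and it was the lowest for 28. Its endothelial genes summed to 157 CPM, against 4620.2 and 5392 in the controls, and its lung epithelium genes to 375. The part of these cells was not tested. The code 83.2 is shared by lung Brx50 3, bone Brx50 2 and brain Brx50 3, where Mki67 stood at 47.4, 1872 and 106 CPM, which is inside the range of the controls of its tissue in lung and above it in bone and brain.

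**Figure D4:**
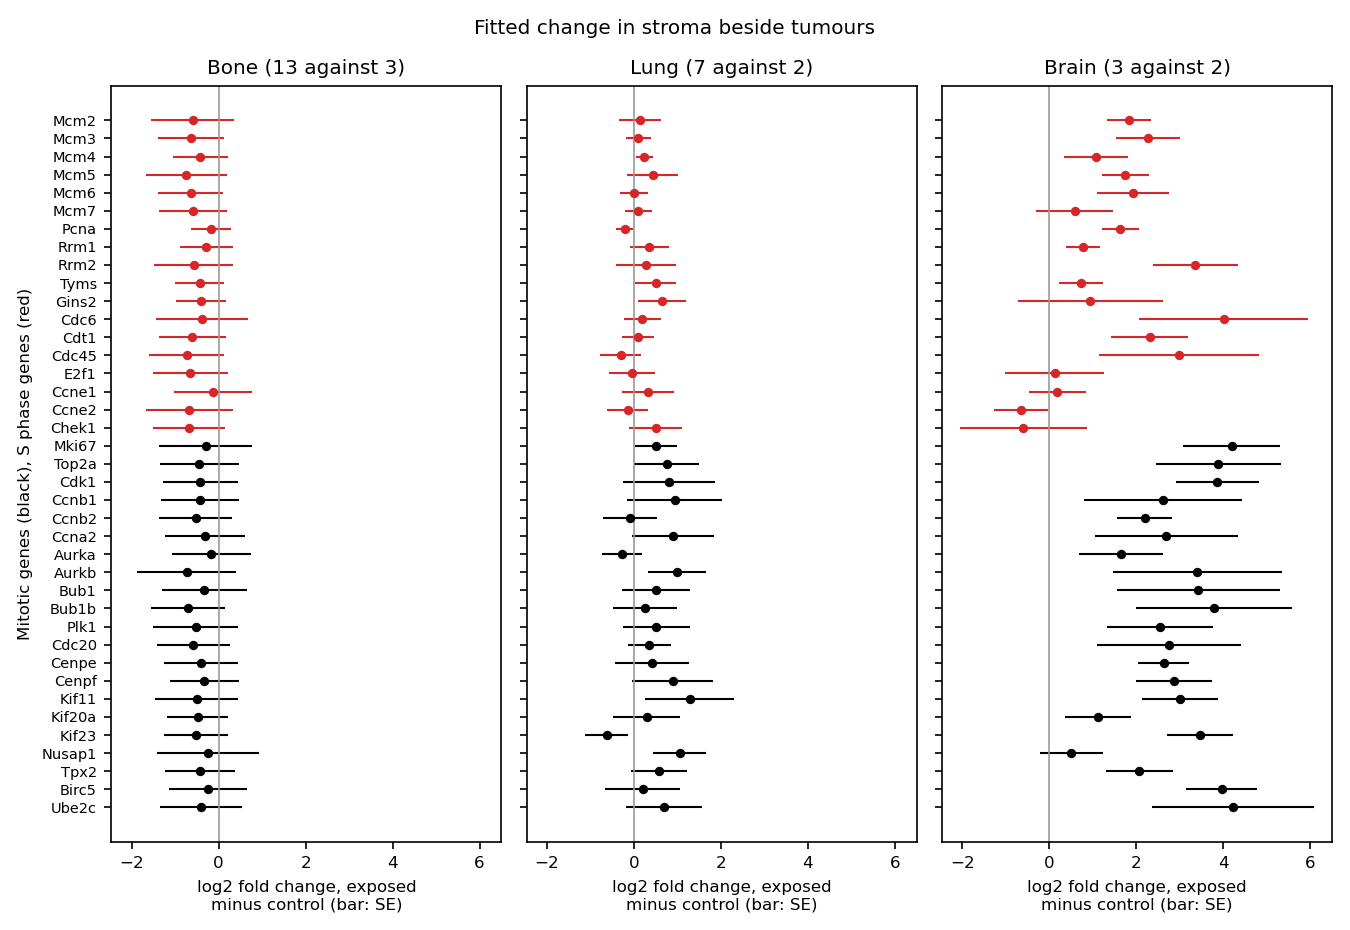
Fitted log2 fold change (edgeR, exposed minus control, bar: SE) of each of the 39 genes in bone, lung and brain, on 1 shared axis. All 39 lie below 0 in bone with wide bars, 32 lie above 0 in lung, and 37 lie above 0 in brain, where the mitotic genes reach further than the S phase genes.

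The change beside tumours was then compared between tissues in 1 fit of all 30 libraries, which treats them as independent. Exposed brain held Brx50 alone, whereas exposed bone and lung pooled several lines, so tissue and tumour line cannot be told apart in these differences. Codes whose meaning the labels do not give recur across tissues, so some libraries may share a source. They are 83.2 (above), 48.1 (brain Brx50 1 and lung Brx50 2), 99.2 (bone Brx68 7 and lung Brx68 1) and 84.2, which spans lines (bone Brx50 3, lung Brx50 1 and bone Brx68 6). By edgeR 0 of 39 members were called in each of the 3 differences, as were 0% of 21233 genes. The change in brain exceeded that in bone by a median of 1.59 for S phase and 3.29 for mitotic genes. By edgeR 14 members had an unadjusted p under 0.05 (8.34% of genes). Limma-voom called 16 members while DESeq2 called 0, and the shares of all genes these methods called are not given here. The largest of the named genes were Mki67 (4.44 ± 1.82), Cdc6 (4.35 ± 2.04), Top2a (4.29 ± 1.77), Cdk1 (4.24 ± 1.73) and Birc5 (4.15 ± 1.67). Rrm2 (3.88 ± 1.70), Ccnb1 (3.04 ± 1.87), Plk1 (3.03 ± 1.74), Mcm2 (2.38 ± 1.51) and Pcna (1.75 ± 0.71) followed, and Ccne1 (0.25 ± 1.37) did not differ beyond its SE. Kif23 had the smallest p (3.94 ± 1.32, edgeR adjusted p = 0.528). Brain exceeded lung by medians of 1.06 and 2.25, with 3 members at an unadjusted p under 0.05 (3.95% of genes), namely Kif23 (4.08 ± 1.39), Pcna (1.81 ± 0.76) and Birc5 (3.74 ± 1.77). There Mki67 was at 3.69 ± 1.87 and Cdc45, the S phase gene of smallest p after Pcna, at 3.29 ± 1.82. Without 1 library these medians ran from 0.56 to 1.42 and from 1.46 to 2.62. Bone was below lung by medians of -0.64 and -0.96, with 0 such members (1.12% of genes), and the members of smallest p were Kif11 (-1.74 ± 1.57), Aurkb (-1.69 ± 1.83), Gins2 (-1.03 ± 1.07) and Tyms (-0.91 ± 0.84). DESeq2 and limma-voom called 0 members in both of these differences. The bone and brain changes were thus fitted in opposite directions, and the difference between them did not pass edgeR's adjusted threshold.

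The balance between the classes differed between tissues. A class score, the mean over its members of log2(CPM + 1), was computed for each library and described without a test. The S phase minus mitotic score was -0.09, -0.23 and -0.15 in bone controls, 0.94 and 1.34 in lung controls and 0.97 and 1.07 in brain controls, so this value was lower in the bone controls than in those of lung and brain. In exposed brain the difference was 0.52, -0.23 and 0.05, below both controls in all 3 libraries. In exposed bone it ran from -0.76 in bone Brx50 2 to 0.87 in bone Brx50 1. In exposed lung it ran from 0.39 in lung Brx07 1 to 1.47 in lung Brx50 3. CPM is not per length, so only differences of this value between libraries can be read, not its sign.

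**Figure D5:**
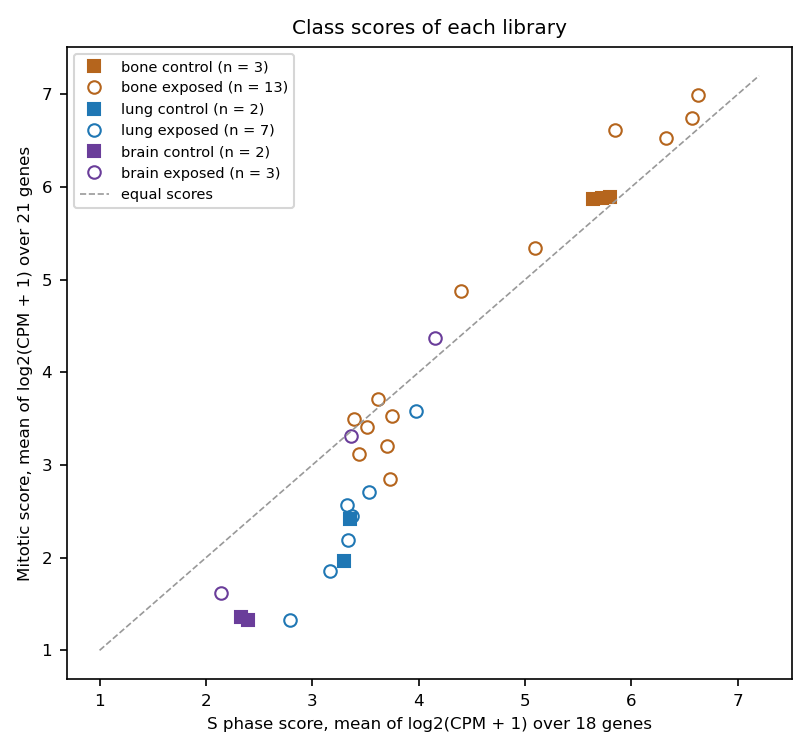
Mitotic score against S phase score for the 30 libraries, with filled marks for controls, open marks for exposed libraries and a dashed line where both scores are equal. The 3 bone controls lie together, the 13 exposed bone libraries spread along the line on both sides of them, and brain Brx50 2 and 3 lie above the brain controls on both axes.

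Related lists outside the members gave no calls beside tumours. By edgeR 0 genes were called in any of the 4 lists (other mitotic, other replication, G1, and E2F and DREAM genes) in bone, lung or brain. Over all genes tested, 0% were called in bone, 0% in lung and 0.00598% in brain, so this absence of calls is not particular to the lists. In brain, where 13.6% of all genes had an unadjusted p under 0.05, all 37 other mitotic genes tested were fitted higher, with a median of 1.97, and 7 had such a p. Of 39 other replication genes tested, 27 were fitted higher and 12 lower, with a median of 0.46 and 8 at such a p. The 12 included Orc3 (-0.62) and Orc4 (-1.25), subunits of the origin recognition complex, both at such a p and named after their values were seen. Of 14 G1 genes tested, 12 were fitted higher and 2 lower, with a median of 0.91 and 5 at such a p. Of 19 E2F and DREAM regulators, 13 were fitted higher and 6 lower, with a median of 0.15 and 2 at such a p. These 2 were E2f2 (2.65) and Foxm1 (2.40), and Foxm1 stood at 14.4 ± 10.2 CPM in exposed brain (SD, n = 3) against 2.57 ± 0.70 (n = 2). In bone 39 of 40 other mitotic and 38 of 40 other replication genes were fitted lower, with medians of -0.48 and -0.41. In lung the medians were 0.44 and 0.08.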

How the data were processed

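RNA of GFP-negative cells sorted from mouse bone, lung and brain was sequenced as 30 libraries. The authors deposited raw read counts per mouse gene in 1 table. The submitters' processing notes name STAR 2.5.2b and HTSeq, and hg19, GRCh37, mm10 and GRCm38.p5 are named without a role. The annotation, the strand setting and how human tumour reads were kept apart were not given in the sources used here. IDs were paired with GENCODE M21 symbols (42462 of 43346), and the 884 IDs without one hold 0.132% of counts. The set members and all gene lists were chosen with earlier results of these data known.

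Counts were tested with edgeR 4.0.16 (R 4.3.3): TMM scaling, filterByExpr, robust quasi-likelihood F-test, two-sided, Benjamini-Hochberg adjustment over all genes tested, threshold 0.05. Fits used the libraries of 1 tissue (exposed against control), the 7 controls, the 11 Brx50 and Brx68 bone libraries, or all 30 libraries for differences between tissues. SE is the absolute log2 change over the square root of F, an approximation. DESeq2 1.42.0 and limma-voom 3.58.1 with quality weights were alternatives, besides other scalings, no filter, lines alone and leaving out each library. Scores use a pseudocount of 1 CPM. Genes named in every comparison are Mki67, Top2a, Cdk1, Ccnb1, Plk1, Mcm2, Pcna, Rrm2, Cdc6 and Ccne1, plus up to 4 members a class with the largest called change, or the 2 of smallest p where none was called. Total counts ran from 4289012 to 15646947 a library; the limit of 3 counts for a count of 0 covers counting error only. Libraries of 1 group always differed beyond sampling noise. The chi-square per degree of freedom was 9.64 to 19.1 between controls of a tissue and 32.1 to 434 between exposed libraries of a group. The fits were also run on simulated counts, whose outcome is not given here. Each gene was drawn independently there, so the simulation does not bear on shifts that many genes of a library share.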

Additional observations from a re-analysis of the deposited data

How the results depend on the processing

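Counts of called members were compared for each comparison under each alternative setting, where 1 fit can serve several comparisons. They kept within 1.5 times of the reported value in 212 cases and not in 7. A count of 0 against 0 was taken as kept. The exceptions were bone by limma-voom (27 members, against 0), brain without the low count filter (3), by DESeq2 (12), by limma-voom (14) and without the library under 17000 genes detected (2, an alternative chosen after seeing the data), and the difference of brain and bone by limma-voom (16). The shares of all genes called under these settings are not given here. Leaving out 1 library gave 0 to 2 called members in brain, the 2 without brain_Brx50 replicate 1, and 0 in the other exposed comparisons. Brain_Brx50 replicate 1 is that library under 17000 genes, so the same fit counts under both names among the 7. The cause was not tested. Of single genes, 2809 values kept their direction and side of the threshold, 41 became called, 1 lost its call and 61 changed sign. Ccne1 in bone turned to 0.037 without the libraries under 17000 genes and Ccne1 in brain to -0.14 by limma-voom. In lung, Brx50 libraries alone turned Plk1 to -0.00958, Rrm2 to -0.35 and Ccne1 to -0.20, and limma-voom turned Cdc6 to -0.072. Between bone and lung changes, limma-voom turned Pcna to -0.22. For Brx68 against Brx50, limma-voom turned Mki67 to -0.80, Cdk1 to -0.18, Ccnb1 to -0.20, Plk1 to -0.96, Mcm2 to -1.02, Rrm2 to -0.78, Cdc6 to -1.05, Ccne1 to -0.66, Gins2 to -0.0696 and Ccna2 to -0.34. Leaving out each library gave log2 ranges that cross 0 for Ccne1 in bone (-0.56 to 0.13) and in brain (-0.18 to 0.41), and in lung for Plk1 (-0.049 to 0.75), Mcm2 (-0.028 to 0.28), Rrm2 (-0.11 to 0.44) and Cdc6 (-0.18 to 0.65). They did so for Ccne1 between brain and bone (-0.17 to 0.73) and between brain and lung (-0.53 to 0.062), Pcna between bone and lung (-0.10 to 0.20) and Ccnb1 between lung and brain controls (-0.46 to 1.38). For the lines they did so for Mki67 (-0.73 to 1.60), Top2a (-0.53 to 1.20), Cdk1 (-0.19 to 1.59), Ccnb1 (-0.011 to 1.72), Plk1 (-0.38 to 0.83), Mcm2 (-0.22 to 1.12), Pcna (-0.034 to 0.70), Rrm2 (-0.55 to 1.35), Cdc6 (-0.34 to 1.35), Ccne1 (-0.23 to 1.10) and Ccna2 (-0.14 to 1.64). With the replicate number of the controls as a block, 39 members were called between bone and lung, 39 between bone and brain and 30 between lung and brain, and 26 with the numbers of the descriptions (added later). By the numbers of the titles, replicate differences correlated at 0.02, -0.08 and -0.03 between tissues. Noise of single libraries could hide a shared mouse, so this does not decide whether the numbers pair the libraries. The numbers of the descriptions were not checked in this way. Upper quartile scaling moved the median of all genes in bone from 0.08 to 0.20 and that of the difference of brain and bone from -0.18 to -0.29, and turned no named gene.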
